A study of Homo sapiens with 6 samples.

Results

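The genes that build, lengthen, desaturate, activate, store and burn fatty acids were examined in A673 cells, an Ewing sarcoma line, with and without the propeptide of lysyl oxidase (LOX-PP). A gene belonged to the set if it was 1 of 38 listed fatty acid metabolism genes and a probe on the array carried one of its transcript accessions. All 38 had such a probe, among 20503 named genes on the array, and the probe with the highest mean signal over the 6 arrays stood for each gene. Of the 38 genes, 36 were well above background on at least 3 arrays and were tested, and 35 were above it on all 6. ACSL6 was above background on 0 arrays and ELOVL7 on 1, so both were left out of the test.

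RNA of 3 A673/TR/empty cultures (control) and 3 A673/TR/LOX-PP cultures was hybridised in 1 colour (Cy3) to Agilent arrays. Both lines derive from A673 cells that express the tetracycline repressor (TR) and both were infected with a lentiviral vector, which carried the LOX-PP cDNA under doxycycline control in one line and no LOX cDNA in the other. The labels give doxycycline at 1 µM for 72 h for every sample, whereas the study's methods name it clearly for the LOX-PP cells, so the doxycycline state of the control cultures is unknown here. Stable clones were selected with zeocin and those with high expression were kept. Whether the arrays used 1 clone is not given in the sources used here, and a difference between clones and an effect of LOX-PP cannot be told apart in that case. Per the study's methods the RNA came from 3 separate experiments, and the labels number the replicates 1 to 3 in each group without saying which samples share an experiment.

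Fatty acid synthesis starts in the cytosol, where acetyl-CoA is made from citrate, acetate or ketone bodies, carboxylated to malonyl-CoA and assembled into palmitate. Elongases and desaturases then lengthen the chain and add double bonds, and acyl-CoA synthetases activate free fatty acids before they enter glycerolipids or the mitochondrion. Entry into the mitochondrion needs carnitine and is blocked by malonyl-CoA, which ties oxidation to synthesis. SREBP-1 and ChREBP are the transcription factors best known for control of these genes, the first by sterols and insulin and the second by glucose.

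The promoters of 34 of the 38 genes were in a RefSeq table (GRCh38.p14), as 58 windows of which each reaches 250 bases upstream and 50 downstream of a start. The letters CCAAT (NF-Y box) occurred on one strand or the other in 20 of the 58 windows (34.5%), against 34.6% of all 35116 windows. CACGTG (E box, read by SREBP-1 and other factors) occurred in 3 windows (5.17%) against 7.26%, those of ELOVL4, ELOVL5 and LPIN2. TCACNCCAC (sterol regulatory element) occurred in 2 windows (3.45%), those of ACSL1 and ACSL6, against 1.13%. A match is only a run of letters, and the shares of the rarer motifs rest on 2 and 3 windows. The upstream sequences of 3 genes are shown, those of the genes whose signal passed the test in each direction, ACSL3 (lower) and MLXIPL (higher), and that of ELOVL5, which was the gene with groups that did not overlap whose window held both an E box and NF-Y boxes. Each is read 5′ to 3′ on the strand of the gene and ends at the base before the start, and capitals mark the motifs. ACSL3 lies on the plus strand at chr2:222860786-222861035, MLXIPL on the minus strand at chr7:73624523-73624772 and ELOVL5 on the minus strand at chr6:53348951-53349200.
ACSL3: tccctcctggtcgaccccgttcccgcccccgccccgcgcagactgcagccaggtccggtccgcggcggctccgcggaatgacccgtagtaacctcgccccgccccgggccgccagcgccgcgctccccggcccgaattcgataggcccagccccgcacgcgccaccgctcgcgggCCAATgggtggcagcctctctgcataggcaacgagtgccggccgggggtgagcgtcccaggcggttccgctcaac
MLXIPL: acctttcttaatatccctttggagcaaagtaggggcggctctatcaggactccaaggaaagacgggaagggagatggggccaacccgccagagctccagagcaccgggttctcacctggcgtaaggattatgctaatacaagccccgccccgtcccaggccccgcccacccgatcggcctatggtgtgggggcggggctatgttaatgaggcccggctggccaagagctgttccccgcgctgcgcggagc
ELOVL5: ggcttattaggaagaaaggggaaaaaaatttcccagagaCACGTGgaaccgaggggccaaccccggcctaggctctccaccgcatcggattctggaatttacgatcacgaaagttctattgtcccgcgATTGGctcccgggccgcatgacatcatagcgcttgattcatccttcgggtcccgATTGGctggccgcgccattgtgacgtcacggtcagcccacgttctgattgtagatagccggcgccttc

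The ACSL3 sequence held 1 NF-Y box, which began 75 bases before the start. The MLXIPL sequence held none of the 3 motifs on either strand. In the ELOVL5 sequence the E box began 211 bases before the start, and the NF-Y boxes, read on the opposite strand as ATTGG, began 122 and 68 bases before it.

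Levels are given as log2 signal minus the 75th percentile of the array, so that 0 is a probe at the 75th percentile. A change is the mean of the LOX-PP arrays minus the mean of the control arrays, on the log2 scale, less the median change of all 32647 tested probes (0.13). The test and its p-values are of the difference before this median is taken off. Each difference tested was thus about 0.13 higher than the change printed beside its p-value. The spots well above background made up 56.9% to 74.8% of the 58717 gene spots per array, and no spot was saturated. The 75th percentile of the signal was 12260, 10230 and 10040 on control replicates 1 to 3. On LOX-PP replicates 1 to 3 it was 4156, 9708 and 5343. The median signal of negative control spots ran from 8.67 on LOX-PP replicate 1 to 108 on LOX-PP replicate 2. LOX-PP replicate 1 was hybridised and scanned apart from the rest (slide 2, scan 2, against slide 1, scan 1 for 5 arrays), so that a fit with the slide as a block equals one without that array. The single LOX probe, which should report the insert only if it lies within the propeptide cDNA, had a level of 0.13 ± 0.22 (SD, n = 3) on the control and -0.70 ± 0.58 (SD, n = 3) on the LOX-PP arrays (adjusted p = 0.217). The probe thus gave no check of the labels, and every direction that follows rests on the labels: LOX-PP arrays are the arrays labelled A673/TR/LOX-PP. All 10 of 10 Ewing sarcoma markers, among them CD99 and NKX2-2, were above background on all 6 arrays. Of these, 0 passed the test, against 7.07% of the brightest probes of all named genes tested. NKX2-2 lay higher on every LOX-PP array than on every control array, with a change of 0.86 (adjusted p = 0.0782). STEAP1 and STEAP2 were higher without overlap too, with changes of 0.31 and 0.22, and the groups of the remaining markers overlapped. In RNA from whole cultures, fewer cells of a type and less RNA per cell cannot be told apart.

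In the set, 2 genes passed the test at an adjusted p under 0.05, the acyl-CoA synthetase ACSL3, which fell, and MLXIPL, which encodes ChREBP and rose. They were 2 of the 36 tested (5.56%), against 5.66% of all tested probes and 7.07% of the brightest probes of all 16593 named genes with a tested probe. Split by the direction of the difference tested, 3.31% of all probes passed with a higher and 2.36% with a lower signal on the LOX-PP arrays. The share past the test was thus near that of the array. At an unadjusted p under 0.05 there were 9 of the 36, against 21.3% of all tested probes. The changes ran from -1.64 to 1.45 with a median of -0.51, and 23 genes lay below and 13 above the median of all probes. The groups of arrays did not overlap for 12 genes (33.3%), 9 of them lower and 3 higher on the LOX-PP arrays, against 29.5% of all tested probes.

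**Figure D1:**
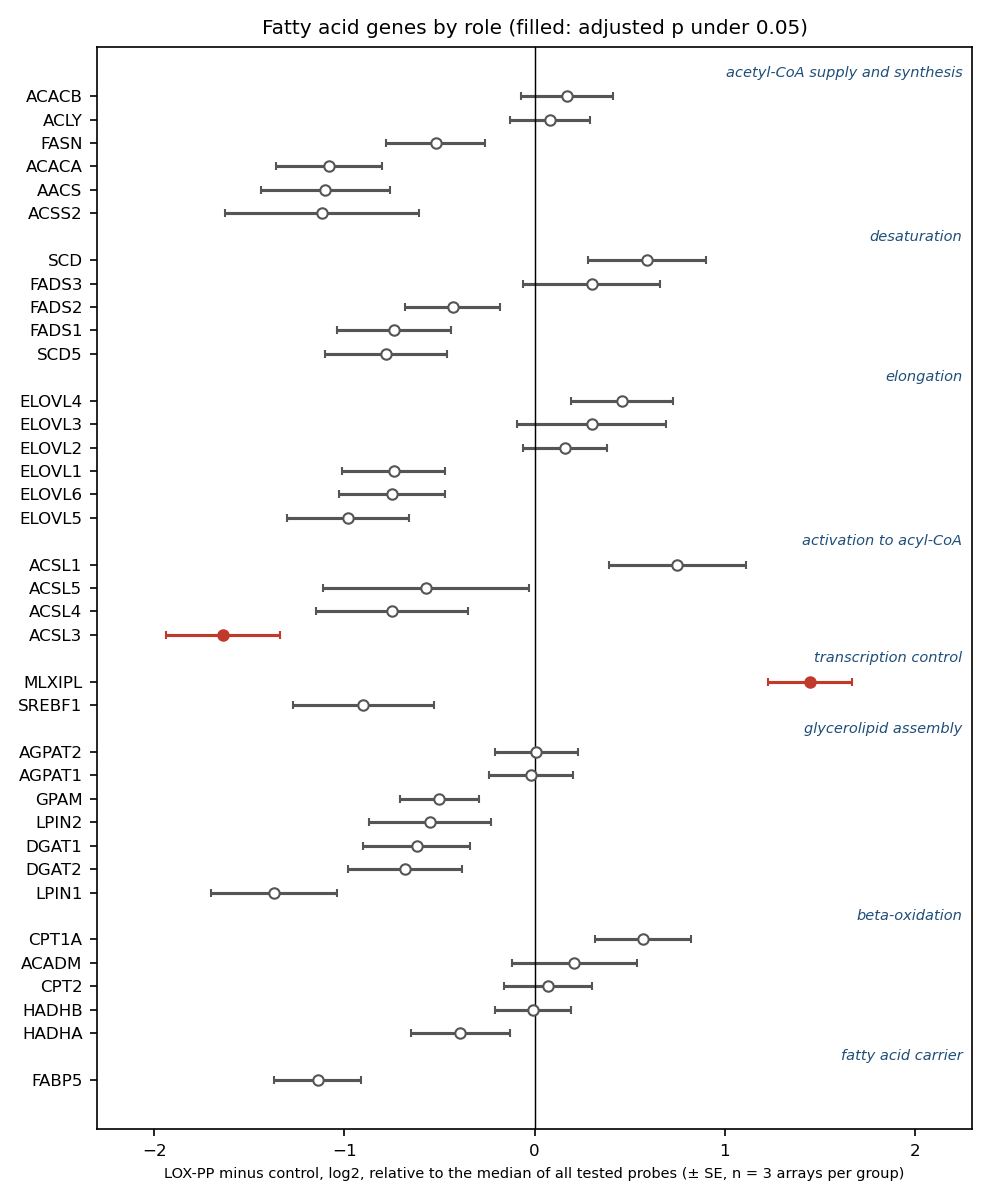
Change of each tested fatty acid gene on the LOX-PP arrays (x axis: log2, LOX-PP minus control, less the median of all tested probes; bars: SE, 3 arrays per group), grouped by role. Filled points passed an adjusted p under 0.05: ACSL3 at -1.64 and MLXIPL at 1.45; the genes of glycerolipid assembly lie at or left of 0.01, and those of beta-oxidation between -0.39 and 0.57.

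The median hides a wide spread. The quartiles of the 36 changes were -0.76 and 0.17, against -0.37 and 0.39 for all tested probes, so the lower part of the set lay further down and its upper part sat close to the rest of the array. The set also lies among brighter probes, and the change of all probes varied with signal. With the probes in 10 equal bins of mean signal, the median was 0.27 in bin 2, near the dim end, and -0.25 in bins 8 and 9. In bin 10, the brightest, it was -0.05. With each gene measured against the median of its own bin, the set had a median of -0.33, with 21 genes below.

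**Figure D2:**
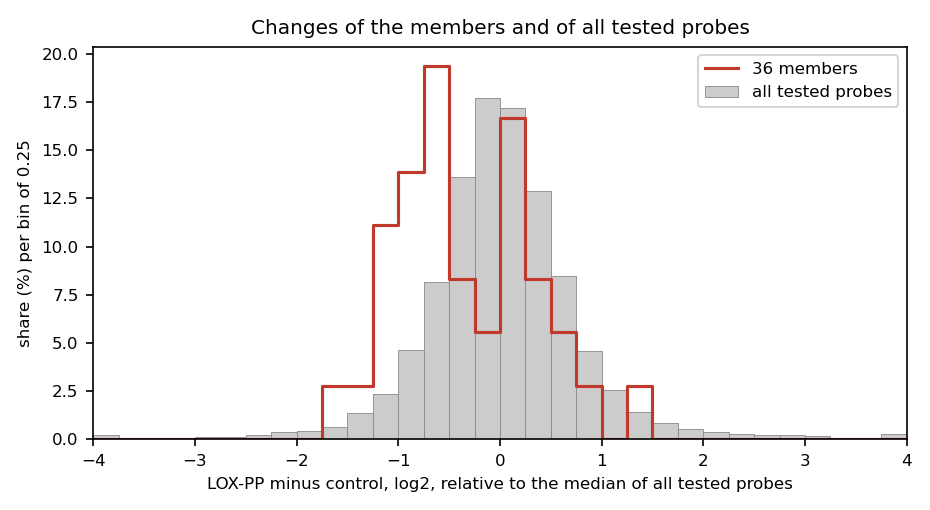
Share of the 36 tested fatty acid genes (red line) and of all 32647 tested probes (grey bars) in bins of 0.25 of the log2 change, LOX-PP minus control, less the median of all probes; values beyond the ends are in the last bins. The set has its middle at -0.51 and reaches from -1.64 to 1.45, within the range of all probes.

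Among the genes that supply acetyl-CoA and synthesise palmitate, 0 of 6 passed the test, and the median change was -0.80. ACLY, the citrate lyase that makes cytosolic acetyl-CoA, had levels of 2.98, 2.89 and 3.05 on control replicates 1 to 3 and 3.03, 3.11 and 3.38 on LOX-PP replicates 1 to 3. Its groups overlapped, and its change was 0.08 ± 0.21 (SE).

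ACACA encodes the acetyl-CoA carboxylase of the cytosol, the step that commits carbon to synthesis. Its levels were 3.82, 4.15 and 3.74 on the control and 2.82, 2.64 and 3.41 on the LOX-PP arrays. Every LOX-PP array lay below every control array, with a change of -1.08 ± 0.28 (SE) that missed the threshold (adjusted p = 0.104). The second probe of ACACA gave -0.76. ACACB, the carboxylase of the outer mitochondrial membrane whose malonyl-CoA restrains carnitine palmitoyltransferase, had a change of 0.17, and its second, dim probe gave 1.33 (adjusted p = 0.158).

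FASN, the synthase that assembles palmitate from malonyl-CoA, was at 5.11, 4.92 and 5.15 on the control and 4.43, 4.46 and 5.11 on the LOX-PP arrays. LOX-PP replicates 1 and 2 lay below the controls and replicate 3 among them, and the change was -0.52 ± 0.26 (SE, adjusted p = 0.438). AACS, which makes acetoacetyl-CoA from ketone bodies, was at 1.46, 1.28 and 1.69 on the control and -0.12, 0.51 and 1.12 on the LOX-PP arrays. Its groups did not overlap, its change was -1.10 (adjusted p = 0.165), and its second probe gave -0.89. ACSS2, which makes acetyl-CoA from acetate, had a change of -1.12 with overlapping groups.

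The 5 desaturases were mixed, with 0 past the test. SCD, the delta-9 desaturase that makes oleate, was at -0.78, -0.53 and -0.63 on the control and -0.15, -0.32 and 0.69 on the LOX-PP arrays. All LOX-PP arrays lay above the controls, with a change of 0.59 ± 0.31 (SE, adjusted p = 0.241). Its paralog SCD5 had a change of -0.78 on its brightest probe, while 2 dimmer probes gave 0.35 and 0.59, so no direction can be given for it. The delta-5 and delta-6 desaturases of polyunsaturated fatty acids, FADS1 and FADS2, had changes of -0.74 and -0.43, and FADS3 had 0.30, all with overlapping groups.

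Of the 6 elongases tested, 0 passed, and 3 lay below and 3 above the median of all probes. ELOVL5, which lengthens polyunsaturated chains, was at 2.14, 2.13 and 2.27 on the control and 0.75, 1.32 and 1.92 on the LOX-PP arrays. The groups did not overlap, the change was -0.98 ± 0.32 (SE, adjusted p = 0.19), and the second probe gave -0.08. ELOVL1, for saturated very long chains, stood at 2.06, 2.09 and 2.06 on the control and 0.97, 1.65 and 1.76 on the LOX-PP arrays. Here too no arrays overlapped, and the change was -0.74 (adjusted p = 0.248). ELOVL6, which lengthens palmitate to stearate, stood at 2.17, 1.85 and 2.20 on the control and 1.89, 1.01 and 1.45 on the LOX-PP arrays. LOX-PP replicate 1 lay above the lowest control, and the change was -0.75 (adjusted p = 0.26). ELOVL2, ELOVL3 and ELOVL4 had changes of 0.16, 0.30 and 0.46 with overlapping groups.

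ACSL3 is a long-chain acyl-CoA synthetase of the endoplasmic reticulum and lipid droplets. Its levels were 2.77, 2.69 and 2.90 on the control and 0.95, 1.00 and 1.85 on the LOX-PP arrays. The 3 control arrays lay close together, every LOX-PP array lay below them, and LOX-PP replicate 3 was nearest to them. ACSL3 fell by 1.64 on the log2 scale (SE 0.30; 3.12-fold; adjusted p = 0.0338), from 2.79 ± 0.11 to 1.27 ± 0.51 (SD, n = 3). The adjusted p rose above the threshold without any 1 of 5 arrays, at 0.158, 0.137 and 0.0913 without control replicates 1, 2 and 3 and at 0.0558 and 0.0936 without LOX-PP replicates 1 and 2, and it was 0.0207 without LOX-PP replicate 3. The change itself lay between -1.94 and -1.36 in every one of the 16 alternatives, 7 of which kept it past the threshold.

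The other long-chain synthetases went separate ways without passing the test. ACSL1, best known in adipocytes, liver and muscle, had a change of 0.75 (adjusted p = 0.218). ACSL4, which prefers arachidonate, had one of -0.75, and ACSL5 one of -0.57 with LOX-PP signal above background on 1 of 3 arrays.

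MLXIPL encodes ChREBP, which binds carbohydrate response elements with its partner MLX. Its levels were -0.46, -0.58 and -0.26 on the control and 1.01, 1.00 and 1.40 on the LOX-PP arrays. All LOX-PP arrays stood far above all controls, and the spread within each group was small. MLXIPL rose by 1.45 on the log2 scale (SE 0.22; 2.72-fold; adjusted p = 0.0124), from -0.43 ± 0.16 to 1.14 ± 0.23 (SD, n = 3). In 13 of 16 alternatives it stayed past the threshold, and its adjusted p was 0.0907 without control replicate 1 and 0.0785 without control replicate 2. MLX itself had a change of 0.17 on its brightest probe (adjusted p = 0.431), and a dimmer probe gave 1.05 (adjusted p = 0.0439), a result looked up after the value of MLXIPL was seen. Of the lipid genes outside the set, ACAT1 and CPT1C also had their further probes looked up. The ACAT1 probes gave -1.24, -1.01 and -1.23 (adjusted p = 0.0986, 0.0606 and 0.0487). Those of CPT1C gave 0.80 and 1.01 (adjusted p = 0.105 and 0.0516).

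SREBF1, which encodes SREBP-1, was at 5.09, 5.20 and 4.92 on the control and 3.86, 3.93 and 5.11 on the LOX-PP arrays. LOX-PP replicates 1 and 2 lay about 1 unit below the controls and replicate 3 lay among them. The change was -0.90 ± 0.37 (SE, adjusted p = 0.281), and the second probe gave -0.01.

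**Figure D3:**
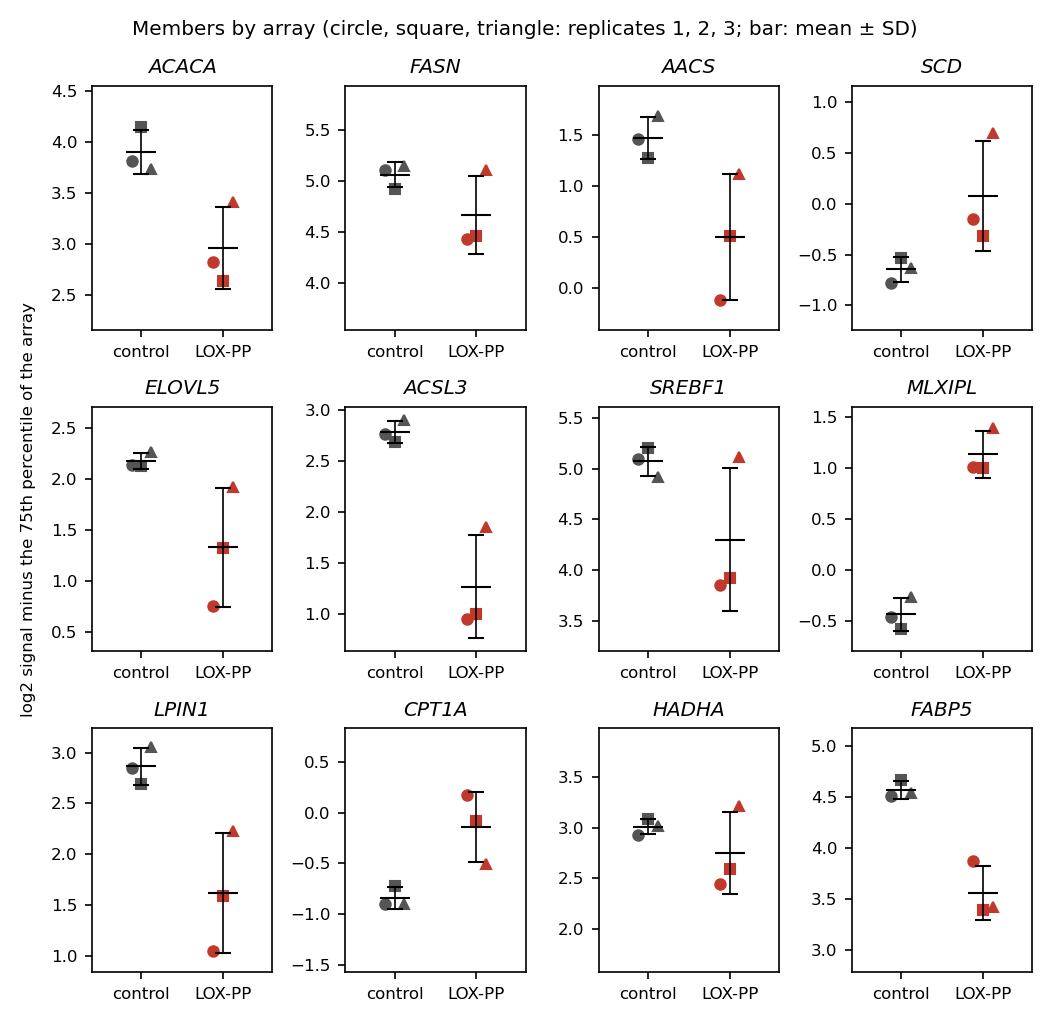
Level of 12 fatty acid genes on each array (y axis: log2 signal minus the 75th percentile of the array; circle, square and triangle: replicates 1, 2 and 3; bars: mean and SD, n = 3). ACSL3 and MLXIPL show separated groups in opposite directions, while for SREBF1, FASN and HADHA the triangle of LOX-PP replicate 3 lies at the level of the controls; each panel has its own axis.

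In glycerolipid assembly 0 of 7 genes passed, and 6 of the 7 lay below the median of all probes. LPIN1, a phosphatidate phosphatase, was at 2.85, 2.69 and 3.05 on the control and 1.05, 1.59 and 2.23 on the LOX-PP arrays. Its groups did not overlap, and its change of -1.37 ± 0.33 (SE) had an adjusted p of 0.0829. The second LPIN1 probe, which is dim, gave 0.08. GPAM, which adds the first acyl chain to glycerol phosphate in mitochondria, was at 1.67, 1.83 and 1.54 on the control and 1.18, 1.38 and 1.38 on the LOX-PP arrays. The groups were separate, with a change of -0.50 (adjusted p = 0.351).

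DGAT2, which adds the last acyl chain of triglycerides, was at -3.02, -2.82 and -2.76 on the control and -3.99, -3.24 and -3.03 on the LOX-PP arrays. The highest LOX-PP array lay just below the lowest control, and the change was -0.68 (adjusted p = 0.333). DGAT1 had a change of -0.62 on its brightest probe and 0.65 on a dimmer one, and LPIN2 one of -0.55. AGPAT1 and AGPAT2, which add the second acyl chain, had changes of -0.02 and 0.01.

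The 5 beta-oxidation genes had a median change of 0.07, and 0 passed the test. CPT1A makes the acylcarnitines that enter the mitochondrion and is the step that malonyl-CoA blocks. Its levels were -0.90, -0.72 and -0.90 on the control and 0.17, -0.08 and -0.51 on the LOX-PP arrays. Each LOX-PP array lay above each control array, with a change of 0.57 ± 0.25 (SE, adjusted p = 0.166).

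HADHA, the alpha subunit of the trifunctional protein, was at 2.93, 3.08 and 3.02 on the control and 2.45, 2.59 and 3.21 on the LOX-PP arrays. Its groups overlapped, since LOX-PP replicate 3 was the highest of the 6 arrays, and the change was -0.39 (adjusted p = 0.616). HADHB, the beta subunit, had a change of -0.01, CPT2, which turns acylcarnitines back into acyl-CoA, 0.07, and ACADM, the medium-chain dehydrogenase, 0.21.

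FABP5, a carrier of fatty acids in the cytosol, was at 4.51, 4.67 and 4.54 on the control and 3.87, 3.39 and 3.42 on the LOX-PP arrays. The groups were well apart, and the change was -1.14 ± 0.23 (SE) with an adjusted p of 0.0508. Both other FABP5 probes passed the test, each with a change of -1.36 (adjusted p = 0.0187 and 0.0188). They were the 2 that passed among 12 tested second and further probes of the set, against 5.66% of all tested probes, and both report the same gene. On the first of them the levels were 4.06, 4.23 and 4.13 on the control and 3.04, 2.86 and 2.82 on the LOX-PP arrays. FABP5 has near-identical copies in the genome, and the files do not say whether these probes tell them apart. FABP5 lies on chromosome 8, where 558 named genes had a median change of -0.42; DGAT1 lies there too. The medians were -0.23 on chromosome 2, which holds ACSL3, and -0.02 on chromosome 7, which holds MLXIPL. The part of the chromosome in the FABP5 value was not tested.

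The 3 LOX-PP arrays did not show the lower part of the set alike. The median difference of the 36 genes from the control arrays was -0.39 on replicate 1, -0.50 on replicate 2 and -0.03 on replicate 3, while each control array, set against the remaining controls, stood at -0.01, 0.11 and -0.01. For the 6 genes of acetyl-CoA supply and synthesis the medians were -0.80, -0.94 and -0.03. Glycerolipid assembly kept its sign on replicate 3 (-0.79, -0.46 and -0.28), and FABP5 was lower on replicates 2 and 3 (-1.34 and -1.27) than on replicate 1 (-0.64). Of the 23 genes below the median of all probes, LOX-PP replicate 3 was the highest LOX-PP array for 15, replicate 1 for 6 and replicate 2 for 2. Over all probes below the median, replicate 3 was the highest for 35.9%. Without LOX-PP replicate 3 the median change of the set was -0.56.

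**Figure D4:**
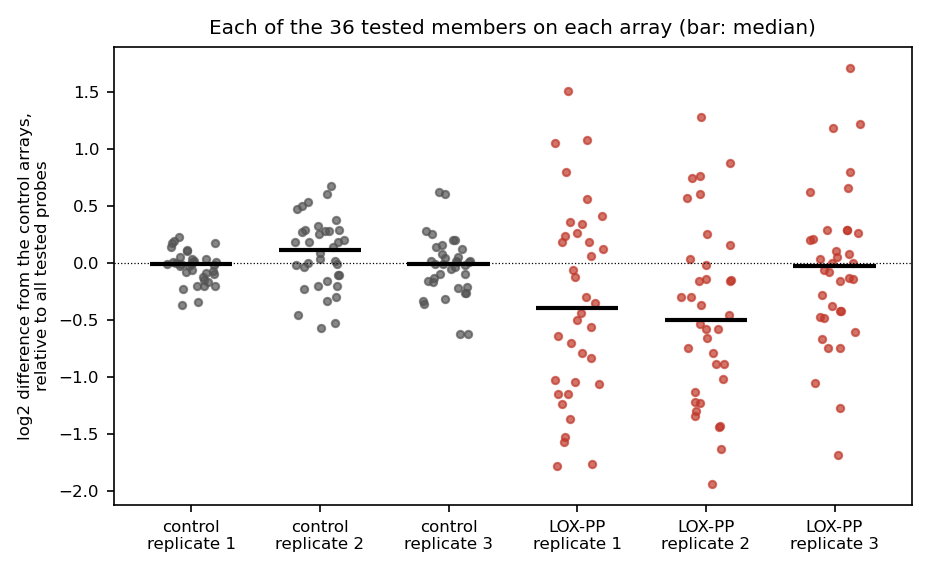
Difference of each of the 36 tested fatty acid genes from the mean of the control arrays (for a control array, of the remaining controls) on each array (y axis: log2, less the median of all tested probes on that array; points: genes; bars: medians). The bars of LOX-PP replicates 1 and 2 lie at -0.39 and -0.50, and that of replicate 3 at -0.03 lies with the controls.

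A wider list of 144 lipid genes was read in the same test. Of these, 142 had a named probe and 121 were tested, and 12 passed (9.92%), 5 higher and 7 lower, against 7.07% of the brightest probes of named genes. The median change of the 121 was -0.21. By function, 1 of 18 synthesis and elongation partners, 2 of 21 genes that control lipid genes, 4 of 34 of the carnitine shuttle and oxidation, 3 of 25 of glycerolipid assembly, droplets and lipolysis, and 2 of 23 of uptake, carriers, activation and thioesterases passed.

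The largest absolute changes of the list, over tested genes, were those of SLC25A20 and CRAT, which handle carnitine alongside CPT1A and CPT2. CRAT, the carnitine acetyltransferase that moves acetyl groups between CoA and carnitine, was at 3.29, 3.41 and 3.17 on the control and -1.22, -1.10 and -1.02 on the LOX-PP arrays. The groups were far apart and tight, and CRAT fell by 4.53 on the log2 scale (SE 0.20; 23.1-fold; adjusted p = 0.000249). It was past the threshold in 16 of 16 alternatives.

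SLC25A20 encodes the translocase that exchanges acylcarnitine for carnitine across the inner mitochondrial membrane, between the steps of CPT1A and CPT2. Its levels were -1.10, -1.24 and -0.80 on the control and -6.54, -5.81 and -6.55 on the LOX-PP arrays, of which 0 were well above background. The mean therefore went from -1.05 to at most the lowest measurable signal, at least 26.0-fold lower (adjusted p = 0.000378), a bound taken from the lowest signal of any probe well above background on each array. SLC25A20 entered the test through the control arrays alone, the group where it was high. It passed in all 15 alternatives that tested it, with an adjusted p of 0.00416 with no filter. With normexp background correction, which adds an offset of 50 to every signal, the change was -3.38, smaller than this bound, which holds for the processed signal.

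SLC22A5, the carnitine importer of the plasma membrane, was at -2.20, -2.40 and -1.62 on the control and -0.13, -0.47 and -0.24 on the LOX-PP arrays. The groups did not overlap, and SLC22A5 rose by 1.67 (adjusted p = 0.015), a call kept in 11 of 16 alternatives and lost without control replicate 1 or 2 or LOX-PP replicate 3 (adjusted p from 0.052 to 0.0973). ACOX2, a peroxisomal oxidase of branched chains and bile acid precursors, stood at 1.61, 1.89 and 1.78 on the control and 0.68, 0.85 and 0.83 on the LOX-PP arrays. It fell by 1.10 on the log2 scale (adjusted p = 0.0409) and was past the threshold in 7 of 16 alternatives, but not once any single array was left out (adjusted p from 0.0516 to 0.195).

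Both PPAR genes that passed rose. They encode nuclear receptors for fatty acids, of which PPAR alpha is known for oxidation genes and PPAR gamma for adipocyte genes. PPARA was at -4.01, -5.02 and -3.59 on the control and -2.62, -2.02 and -1.86 on the LOX-PP arrays. The groups were separate, and the change was 1.92 (adjusted p = 0.0374), while a second, dimmer probe gave 1.55 (adjusted p = 0.154). PPARA passed in 9 of 16 alternatives and not without control replicate 1 or 2 or LOX-PP replicate 2 or 3 (adjusted p from 0.0992 to 0.142).

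PPARG was above background on 0 of 3 control arrays, at -6.21, -7.71 and -5.73, and on all LOX-PP arrays, at -3.69, -3.33 and -3.04. Its processed signal was at least 7.27-fold higher on the LOX-PP arrays (adjusted p = 0.018), and a second probe rose too, with a change of 3.1 (adjusted p = 0.0393). Both probes entered the test through the LOX-PP arrays alone, the group where they were high, and each adjusted p depends on that filter. With no filter the adjusted p of the brightest PPARG probe was 0.0687. The size depends on the background correction: with normexp the PPARG change was 1.15 (adjusted p = 0.0269), well under that bound. PPARG passed in 10 of 15 alternatives, and its adjusted p was 0.075 when control replicate 1 was dropped and 0.0601 and 0.0626 when LOX-PP replicate 2 or 3 was. Of 8 adipocyte markers, 4 were above background on all 6 arrays (ADIPOQ, CIDEC, CEBPA and LPL) and 3 on none (FABP4, LEP and PLIN1). CEBPA and PPARG were the 2 that passed, both higher. ADIPOQ, CIDEC and LPL had changes of 0.55, -0.31 and 1.72 without passing. The mean level of the 8 markers ranged from -4.89 to -3.60 on the control and from -3.95 to -2.57 on the LOX-PP arrays.

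Among genes of lipid droplets, PLIN5, a droplet coat protein of oxidative tissues, was at -2.18, -2.47 and -2.67 on the control and -0.43, -1.05 and -0.97 on the LOX-PP arrays. It rose by 1.5 without overlap (adjusted p = 0.0187). PNPLA3, a lipase and acyltransferase of droplets, was at 3.04, 2.84 and 3.29 on the control and -0.14, 0.26 and 1.41 on the LOX-PP arrays. It fell by 2.67 on the log2 scale (6.38-fold; adjusted p = 0.0187), with LOX-PP replicate 3 again nearest to the controls. G0S2, an inhibitor of the triglyceride lipase ATGL, stood at 0.22, 0.30 and 1.46 on the control and -1.62, -1.76 and -1.51 on the LOX-PP arrays. Its LOX-PP values were tight and all below the controls, and it fell by 2.42 on the log2 scale (adjusted p = 0.0175). PLIN5 passed in 11 of 16 alternatives and not without any 1 control array (adjusted p from 0.0558 to 0.0998). PNPLA3 passed in 10 of 16, and not without any 1 control array or LOX-PP replicate 2 (from 0.0536 to 0.0968). G0S2 passed in 10 of 16, and not without control replicate 1 or 2 or LOX-PP replicate 2 or 3 (from 0.0539 to 0.0625). CRAT, PNPLA3 and G0S2 had the largest absolute changes among list genes above background on all 6 arrays.

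The last of the 12 were an electron carrier and acyl-CoA synthetases. CYB5B, the cytochrome b5 of the outer mitochondrial membrane, was at 1.42, 1.21 and 0.86 on the control and -0.92, -0.78 and -0.92 on the LOX-PP arrays. It fell by 2.17 on the log2 scale (adjusted p = 0.00509) and passed in 16 of 16 alternatives. ACSS3, a mitochondrial synthetase for short acids, went from -0.22, -0.18 and 0.58 to -5.22, -2.71 and -4.41, with 2 of 3 LOX-PP arrays above background. It fell by 4.30 on the log2 scale (adjusted p = 0.0144), passing in 10 of 15 alternatives and not without control replicate 1 or 2 or LOX-PP replicate 3 (from 0.0556 to 0.0696). ACSF2, another mitochondrial synthetase, stood at -1.86, -1.59 and -0.48 on the control and 0.42, 0.59 and 1.22 on the LOX-PP arrays. It rose by 1.93 (adjusted p = 0.0378), passing in 8 of 16 alternatives, and of the single arrays only control replicate 3 could be left out without losing the call (adjusted p from 0.0516 to 0.169 without each of the others).

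**Figure D5:**
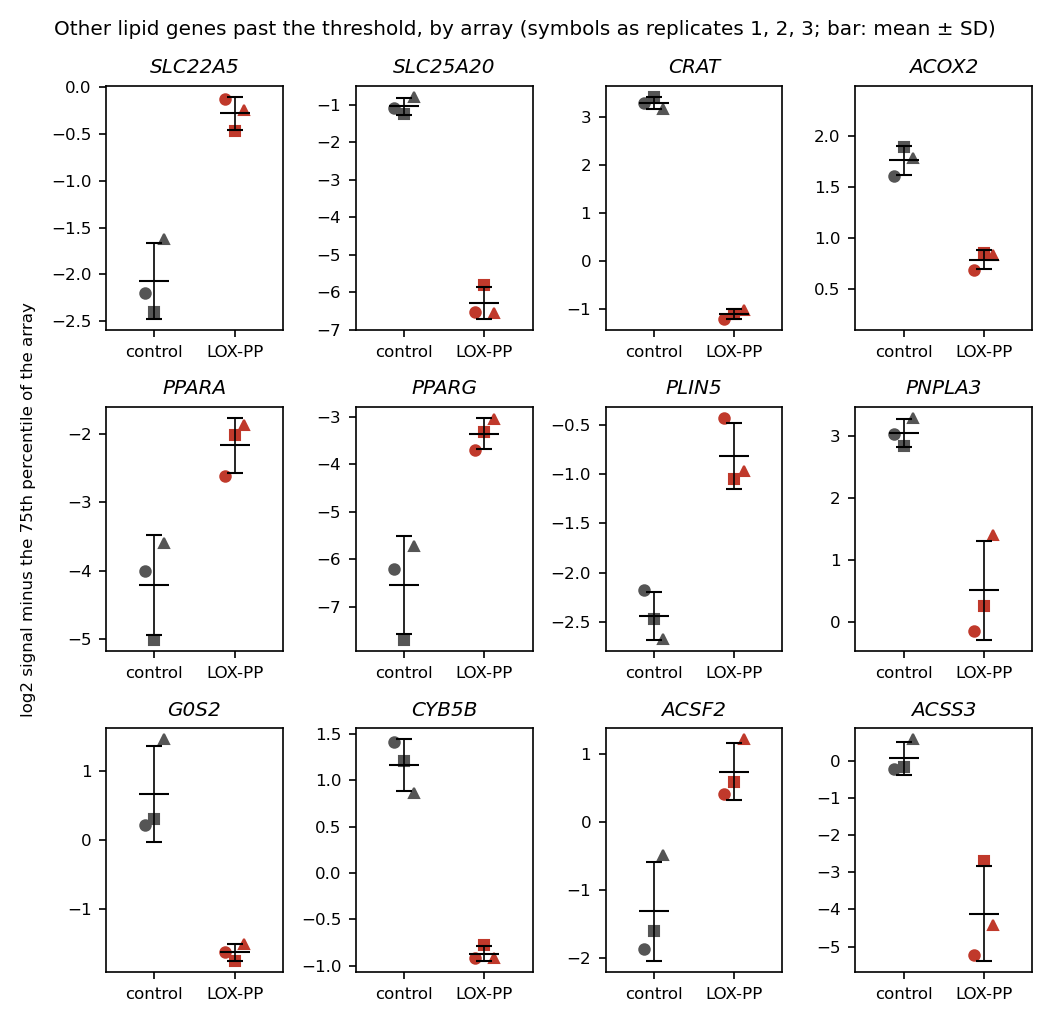
Level of the 12 genes of the wider lipid list that passed an adjusted p under 0.05, on each array (y axis: log2 signal minus the 75th percentile of the array; circle, square and triangle: replicates 1, 2 and 3; bars: mean and SD, n = 3). Groups are separate in every panel; CRAT goes from about 3.29 to -1.11, and the LOX-PP values of SLC25A20 and the control values of PPARG are below background; each panel has its own axis.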

How the data were processed

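RNA of 3 control and 3 LOX-PP cultures of A673 cells was measured on 6 Agilent 1-colour arrays. The authors deposited spot intensity from Agilent Feature Extraction (version 10.7), in which the processed signal is corrected for background and spots carry flags for background, saturation and outliers. They also deposited a table of log2 values, whose normalization is not given in the sources used here. Once each probe was centred on its median, the log2 processed signal less the 75th percentile of the array, with outlier spots kept, matched that table within 0.02 for 50289 of 50599 probes (largest difference 0.903). The direction and scale of the table are thereby known.

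From the intensities, control spots and outlier spots (213 to 353 per array) were dropped. The remaining spots of each probe were averaged on the log2 scale, and each array was scaled to its 75th percentile. A probe entered the test if 3 or more of the 6 arrays had it well above background. It was tested with limma (version 3.58.1, R 4.3.3), all 6 arrays in the fit and no block, two-sided, with Benjamini-Hochberg adjustment over all 32647 probes and a threshold of 0.05. The RefSeq table named 28174 of the 50599 probes. The fit was tested on simulated arrays. A probe with 0 arrays above background in 1 group is given as a bound. Named in the text are all 38 genes, with array values for those past the threshold or without overlap and for ACLY, ACACA, FASN, SCD, SREBF1, ELOVL6, CPT1A and HADHA, and every gene of the wider list past the threshold with the 3 largest changes. The genes, lists and rules were chosen with earlier results of these data known. The number of arrays, 3 a group, sets the limit of precision. Alternatives changed the normalization, background correction, filter, block, test and arrays. They are not independent: the slide block and the fit without LOX-PP replicate 1 are the same fit counted apart. The authors' values and scaling to the median of probes above background on all arrays came close to the main fit.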

Additional observations from a re-analysis of the deposited data

How the results depend on the processing

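The count of fatty acid genes past the threshold, 2 in the main fit, became 0 with no filter on dim probes and 1 (MLXIPL) with the methods' t-test. It was 0 to 2 when 1 array was left out, and without LOX-PP replicate 1 the 2 were MLXIPL and FABP5. The count of the wider list, 12 in the main fit, became 3 with no filter, 4 with the t-test and 3 to 12 when 1 array was left out. Control replicates 1 and 2 gave 3 and 4 when dropped, and LOX-PP replicates 2 and 3 gave 6 and 7. The genes counted were not always the same: without LOX-PP replicate 1 there were 12, but ACOX2 and ACSF2 were not among them (adjusted p = 0.0516 for each). The count of further probes, 2 in the main fit, became 0 with no filter and 0 to 2 when 1 array was left out. It was 0 without control replicate 1 or 2 or LOX-PP replicate 2 or 3. Without control replicate 3 it was 1, a probe higher on the LOX-PP arrays, so both FABP5 calls were lost there too. FABP5 passed with 6 alternatives, among them quantile normalization (adjusted p = 0.0442) and the slide as a block (adjusted p = 0.0272). The median of -0.51 was -0.33 with quantile normalization, -0.34 with normexp background correction, -0.35 with cyclic loess (chosen after seeing the data), and -0.57 to -0.37 when 1 array was left out. Same-numbered arrays had correlations of 0.27, -0.39 and 0.23 between their deviations, and differently numbered ones had correlations from -0.46 to 0.39. With 3 arrays a group the deviations depend on each other, so these values cannot decide whether the replicate numbers pair the samples. With the replicate block, 1 gene of the set (MLXIPL), 11 of the wider list and 0 further probes passed, and 860 of all probes instead of 1849. All probes past the threshold numbered 516 with no filter, 566 with the t-test and 407 to 2062 when 1 array was left out.

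Signs turned only for genes with a change of at most 0.21 in size or, for SCD5 and DGAT1, with probes that disagree. With quantile normalization, normexp, the filter on all 6 arrays and cyclic loess, AGPAT1 was at 0.24, 0.27, 0.04 and 0.16 and HADHB at 0.07, 0.07, 0.04 and 0.03. With no filter, ACLY was at -0.10, ACACB at 0, ELOVL2 at -0.01, AGPAT2 at -0.16 and CPT2 at -0.10. ACADM was at -0.15 with the slide as a block. The mean over probes gave 0.05 for SCD5 and 0.01 for DGAT1; it has no adjusted p and so gives no counts. When 1 array was left out, the change ranged from -0.17 to 0.18 for AGPAT1, -0.12 to 0.15 for AGPAT2, -0.08 to 0.12 for HADHB, -0.01 to 0.24 for CPT2, -0.15 to 0.53 for ACADM and -0.03 to 0.19 for ACLY. Of the values of single genes, 726 kept sign and side of the threshold, 68 lost and 7 gained the call, and 28 changed sign. The lowest signal above background sets the limit for SLC25A20, PPARG, ACSL6 and ELOVL7.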

Other observations

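INSIG1, which encodes the protein that holds SREBP in the endoplasmic reticulum when sterols are plentiful, was looked at after its values were seen. Its levels were 2.57, 2.79 and 3.16 on the control and -0.44, -0.16 and 2.45 on the LOX-PP arrays. LOX-PP replicate 3 lay near the controls and replicates 1 and 2 far below. For FASN and the brightest SREBF1 probe, replicates 1 and 2 also lay below the controls, by smaller gaps. The second SREBF1 probe, with a change of -0.01, did not show this. The change of -2.35 had an adjusted p of 0.143, and without LOX-PP replicate 3 it was the only alternative of 16 in which INSIG1 passed (adjusted p = 0.0102).

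Other cell type markers gave a few calls. Of 7 fibroblast markers, FAP rose by 3.52 on the log2 scale (adjusted p = 0.00113), LUM fell by 2.42 (adjusted p = 0.0191) and the rest did not pass. Of 6 epithelial markers, 4 were above background on all 6 arrays and only CLDN4 passed, with a rise of 2.08 (adjusted p = 0.0258). KRT19 had a change of -1.01 (adjusted p = 0.0519), and EPCAM, KRT8 and KRT18 had 0.49, 0 and -0.23. CDH1 was above background on none. Of 6 hepatocyte markers 2 were above background on all 6 arrays, and 0 passed; ALB was above it on none. Of 6 haematopoietic markers 5 were above background on all arrays and 0 passed. CEBPA, a transcription factor of adipocytes and other cells, rose by 3.06 (adjusted p = 0.00444), from -2.43, -2.80 and -1.98 on the control to 0.20, 1.04 and 1.09 on the LOX-PP arrays.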
